A study of Homo sapiens with 15 samples.

Results

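The J-domain proteins, also called Hsp40 co-chaperones, were described through the RNA of their genes in the line MDA-MB-231 after exposure to ZJ-101. Members were taken by symbol: every row of the deposited table named DNAJA, DNAJB or DNAJC followed by a number and an optional B. The rule matched 44 of 59608 genes, and 36 of these reached a mean of 10 normalized counts over all libraries and were tested among 13561 genes. They were grouped by the known place of the protein into 15 of the cytosol (11 tested), 11 of the endoplasmic reticulum (ER, all tested), 5 of mitochondria (all tested) and 13 of other or uncertain places, such as the nucleus, vesicles and endosomes (9 tested). MDA-MB-231 is a human triple-negative breast cancer line, and ZJ-101 is a compound derived from a marine natural product. Cells in flat (2D) culture received ZJ-101 at 0.5, 5, 50 or 500 nM for 6 h, and control dishes received the vehicle (0.1% DMSO). Each of the 5 groups has 3 libraries from separate dishes, which the study calls biological replicates. All dishes hold the same line, so the tests measure the spread between dishes of 1 line.

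J proteins recruit HSP70 chaperones to their clients and trigger the ATP hydrolysis that closes HSP70 on a client, and exchange factors then release the nucleotide and the client. Class A and class B members (DNAJA, DNAJB) resemble the bacterial DnaJ in layout, while class C members share the J domain alone and often serve 1 task. The cytosol, the ER and the mitochondrial matrix each have their own HSP70, namely HSPA8 with its relatives, HSPA5 (BiP) and HSPA9 (mortalin). In human cells DNAJB1 and DNAJA1 are known targets of the heat shock response, and DNAJC3, DNAJB9, DNAJB11 and DNAJC10 are known targets of the unfolded protein response of the ER.

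The values are normalized counts, which are reads per gene divided by a size factor of each library. Libraries held 12415519 to 15284762 reads on genes, with size factors from 0.9162 to 1.132 and mitochondrial transcripts at 0.889 to 2.06% of reads. VIM, CD44, LGALS1 and EGFR, which mark this line, were between 3471 and 18413 normalized counts in every library. ESR1 was at most 4.3, PGR at most 17.3, CDH1 between 107 and 206 and EPCAM between 266 and 320.2. PTPRC of immune cells, HBB and ALB did not exceed 3.53, while the endothelial marker PECAM1 was at 201 to 321. The second 0.5 nM library stood apart. Over 12719 genes its deviation from the mean of all 15 libraries correlated with exon length at a Spearman rho of -0.423. This is a description over genes that share the library, and any effect of dose is part of the deviation. The second 50 nM library had -0.219, and the other libraries lay between -0.0287 and 0.166.

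At 500 nM, 5 of the 36 tested members rose and 5 fell (limma, adjusted p under 0.05), which is 27.8% against 17.8% of all tested genes. In the cytosol 4 of 11 rose (DNAJB1, DNAJA1, DNAJB4 and DNAJB6) and 0 fell. In the ER 5 of 11 fell (DNAJC3, DNAJB11, DNAJB9, DNAJC10 and DNAJB14) and 1 rose (DNAJC16). The number past the threshold was 0 of 5 for mitochondria and 0 of 9 for other places. For comparison, 7.69% of all tested genes rose and 10.1% fell. The median log2 fold change was 0.07 over the cytosolic members, -0.08 over the ER members, 0.05 over the mitochondrial members and 0.00 over the rest, and 0.003 over all tested genes. Since the libraries come from whole dishes, a shift in the mix of cells and a shift in RNA per cell cannot be told apart.

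**Figure D1:**
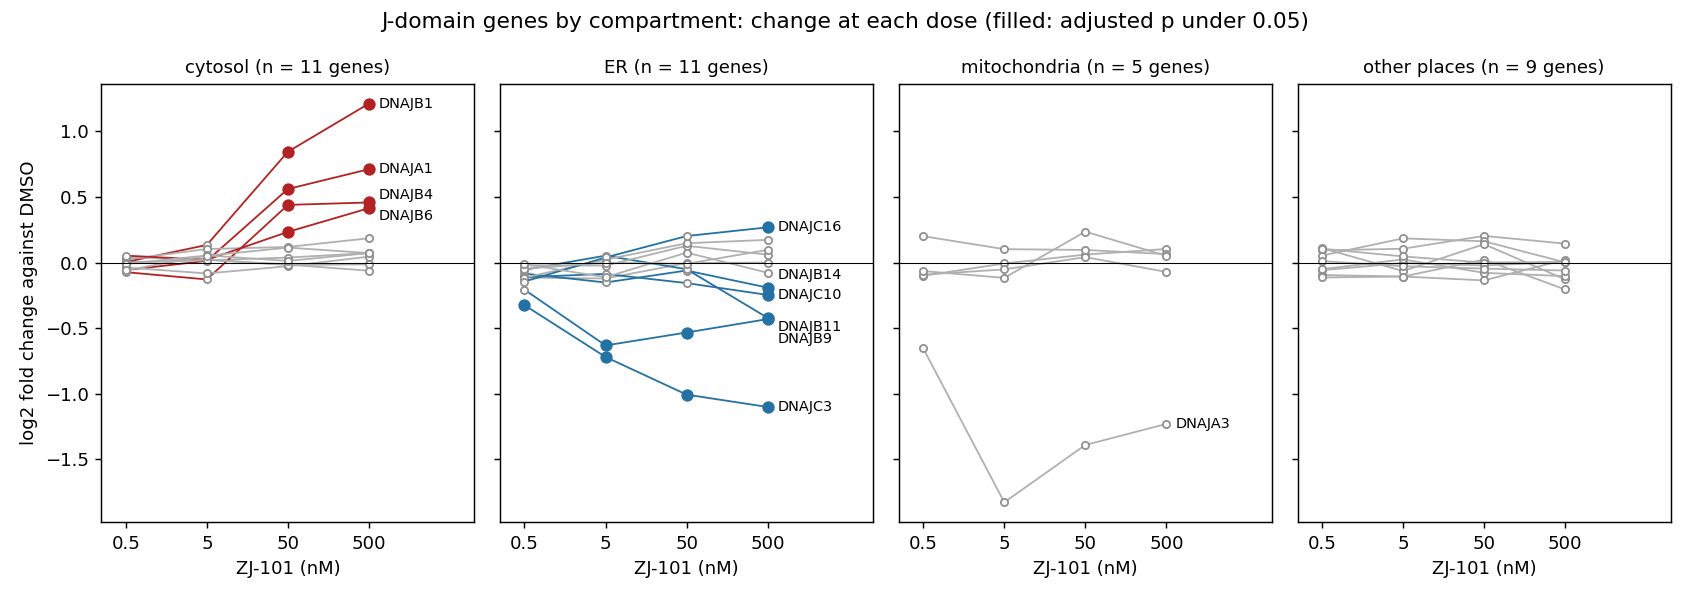
The log2 fold change against DMSO (y axis, fit over log2 of the normalized count plus 1) is plotted at each dose of ZJ-101 (x axis, nM) for the 36 tested members, 1 line per gene in 4 panels by compartment. Filled points have an adjusted p under 0.05, and the coloured lines of the cytosol end between 0.41 and 1.21 at 500 nM, those of the ER between -1.10 and 0.27.

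The count of members past the threshold grew with dose. At 0.5 nM it was 1 (DNAJC3, down), or 2.78% against 1.17% of all tested genes, of which 0.251% rose and 0.922% fell. At 5 nM it was 2 (DNAJC3 and DNAJB11, both down), or 5.56% against 2.18%, of which 0.465% rose and 1.71% fell. At 50 nM 4 members rose and 2 fell, or 16.7% against 6.00%, of which 2.29% rose and 3.71% fell. The members that passed at the lower 2 doses were thus ER genes in this fit, while 0 of 11 cytosolic members passed there (limma). At the adjusted threshold edgeR and DESeq2 also gave 0 at both doses. At an unadjusted p under 0.05 (limma) the cytosolic count was 0 at 0.5 nM and 1 at 5 nM (DNAJB1). The share of all tested genes at that unadjusted p is not given here, so these counts have no background. When the 6 libraries of 5 nM and DMSO were fitted alone, the cytosolic DNAJB1 (limma, log2 fold change 0.13, adjusted p = 0.041) and the mitochondrial DNAJA3 (-1.83, adjusted p = 0.018) passed as well. Without the third 0.5 nM library DNAJB11 also passed at 0.5 nM (adjusted p = 0.028). The 4 dose comparisons share the DMSO libraries, so steps between neighbouring doses were tested as well. The fold change of a step does not use the DMSO libraries, but the variance of the fit does. Neighbouring steps share the libraries of the dose between them. From 0.5 to 5 nM 2 members fell (DNAJC3 and DNAJB11), against 0.118% of all genes past the threshold (0.0295% up and 0.0885% down). From 5 to 50 nM the same 4 cytosolic genes that had risen against DMSO at 50 nM rose, and DNAJC3 fell, against 5.01% (2.62% up and 2.39% down). From 50 to 500 nM DNAJB1 and DNAJB6 rose and DNAJB9 fell, against 2.28% (0.479% up and 1.80% down). When the 5 groups were taken as equal steps, the trend over them (the slope) passed for 6 members upward (DNAJB1, DNAJA1, DNAJB4, DNAJB6, DNAJB2 and DNAJC16) and 4 downward (DNAJC3, DNAJB11, DNAJC10 and DNAJB9), or 27.8% against 17.6% (8.23% up and 9.33% down). The libraries of a dose lay wholly above or wholly below those of DMSO for 5 of the 36 members at 0.5 nM, 7 at 5 nM, 14 at 50 nM and 18 at 500 nM, while 18.1%, 23.2%, 24.8% and 38.5% of all tested genes did so.

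**Figure D2:**
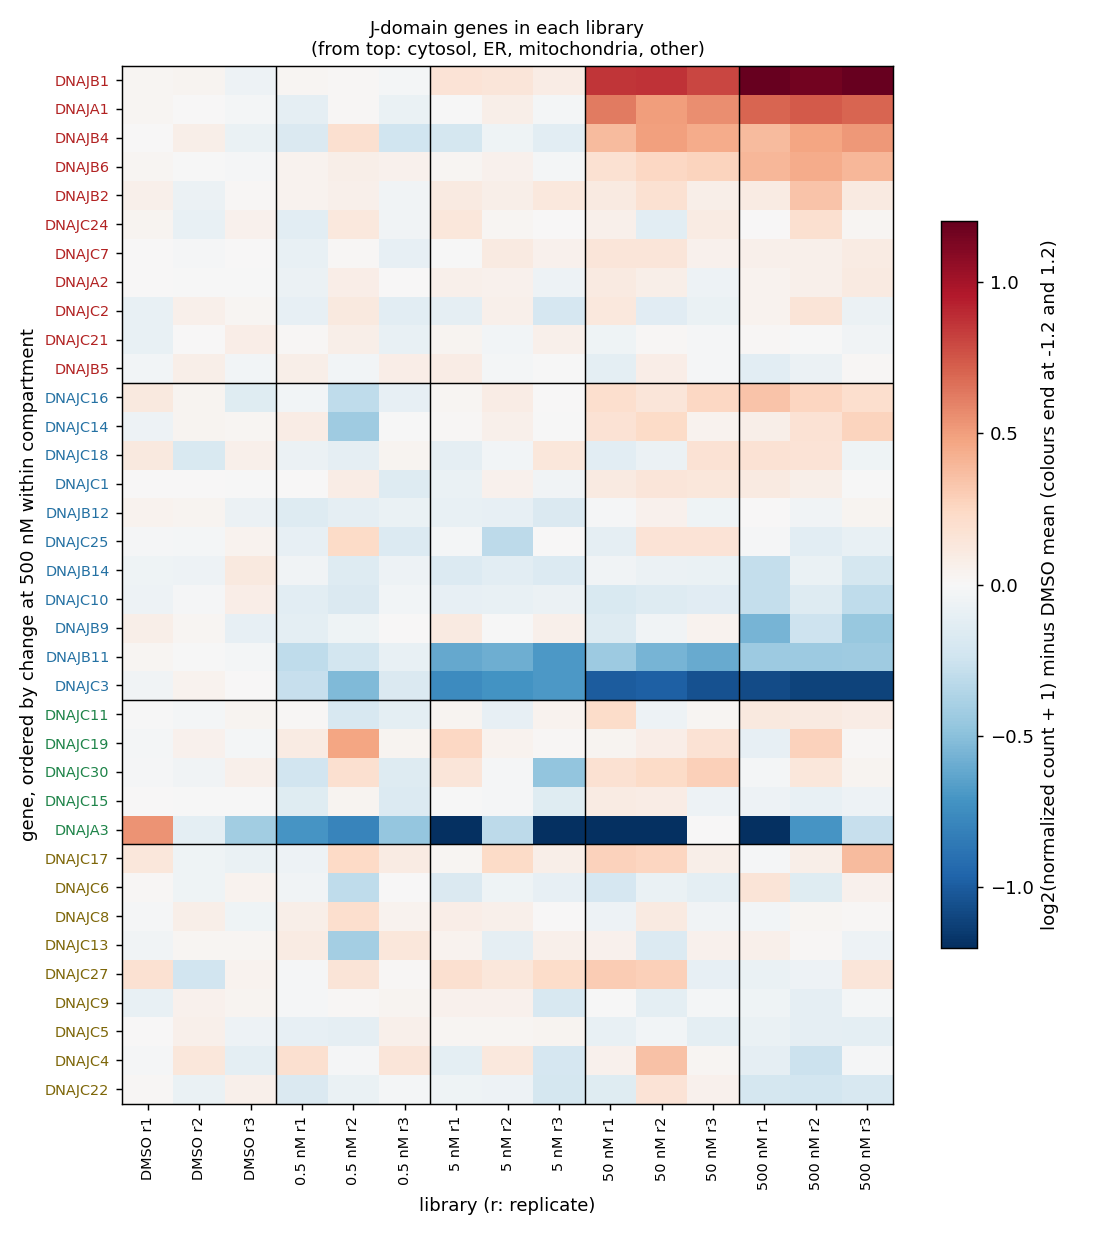
Each column is 1 of the 15 libraries and each row 1 of the 36 tested members, from top to bottom the cytosol, ER, mitochondria and other places. Colour gives log2(normalized count + 1) minus the DMSO mean, with red above and blue below (colours end at -1.2 and 1.2), and shows DNAJB1 and DNAJA1 above DMSO in all 50 and 500 nM libraries and DNAJC3 below DMSO in every treated library.

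Promoters are shown for the members with the largest rise and fall and for each member past the threshold at 500 nM whose promoter held a searched motif. The latter (DNAJB6 and DNAJC10) were chosen after the matches were seen. The windows of DNAJB4, DNAJB11 and DNAJB9 were prepared as well, held no match and are not shown. The windows shown thus favour members with a match. The windows run from 250 bases before to 50 bases after the start of the RefSeq gene (GRCh38.p14), 5′ to 3′ on the strand of the gene, and 39 of the 44 members had one. Only 1 window per gene was searched, so other start sites were not covered. The windows of DNAJB1 and DNAJB6 lie inside the gene spans given for them below, not at the annotated start. Capitals mark a match. The heat shock element was searched as GAA, TTC and GAA or as TTC, GAA and TTC with 2 free bases after each of the first units. The ER stress elements were searched as CCAAT and CCACG with 9 free bases between them (ERSE) and as ATTGG and CCACG with 1 free base between them (ERSE-II), and the core of the unfolded protein response element as TGACGTGG, all on both strands. On its opposite strand the last motif begins with CCACG, the letters that end both ERSE motifs.
DNAJA1 (chr9:33025023-33025322, plus strand): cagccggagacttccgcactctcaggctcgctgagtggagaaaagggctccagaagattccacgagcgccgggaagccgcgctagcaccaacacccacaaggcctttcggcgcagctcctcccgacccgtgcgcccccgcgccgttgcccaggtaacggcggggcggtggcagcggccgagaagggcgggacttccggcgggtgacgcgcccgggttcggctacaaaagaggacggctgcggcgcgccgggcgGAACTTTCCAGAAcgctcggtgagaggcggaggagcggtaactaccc
DNAJB6 (chr7:157336754-157337053, plus strand): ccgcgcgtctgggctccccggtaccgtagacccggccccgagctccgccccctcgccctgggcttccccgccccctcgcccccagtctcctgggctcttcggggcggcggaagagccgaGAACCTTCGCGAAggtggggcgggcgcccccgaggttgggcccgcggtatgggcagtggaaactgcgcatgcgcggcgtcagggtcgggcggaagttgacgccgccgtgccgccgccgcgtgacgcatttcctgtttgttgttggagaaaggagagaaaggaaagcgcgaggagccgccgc
DNAJC10 (chr2:182716007-182716306, plus strand): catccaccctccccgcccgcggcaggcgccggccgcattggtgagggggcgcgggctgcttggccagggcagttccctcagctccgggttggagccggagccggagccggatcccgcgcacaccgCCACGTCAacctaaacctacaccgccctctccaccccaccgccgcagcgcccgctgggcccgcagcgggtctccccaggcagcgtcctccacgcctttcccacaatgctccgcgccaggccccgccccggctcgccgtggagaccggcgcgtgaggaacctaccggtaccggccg
DNAJB1 (chr19:14529222-14529521, minus strand): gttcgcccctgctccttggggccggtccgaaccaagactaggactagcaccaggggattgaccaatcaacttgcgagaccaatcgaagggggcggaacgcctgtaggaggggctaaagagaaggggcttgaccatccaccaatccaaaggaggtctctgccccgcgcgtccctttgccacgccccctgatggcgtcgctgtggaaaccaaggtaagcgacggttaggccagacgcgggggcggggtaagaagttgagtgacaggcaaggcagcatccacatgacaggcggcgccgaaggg
DNAJC3 (chr13:95676889-95677188, plus strand): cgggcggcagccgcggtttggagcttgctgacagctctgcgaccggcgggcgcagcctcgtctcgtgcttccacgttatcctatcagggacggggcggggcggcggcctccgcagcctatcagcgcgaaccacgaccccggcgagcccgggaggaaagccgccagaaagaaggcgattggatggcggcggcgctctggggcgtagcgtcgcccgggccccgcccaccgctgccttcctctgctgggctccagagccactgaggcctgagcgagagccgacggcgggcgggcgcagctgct

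The heat shock element was found in DNAJA1 at chr9:33025276-33025288, which is base 4 to 16 counted from 1 at the start site, and in DNAJB6 at chr7:157336873-157336885, which is base -131 to -119. These are 2 of the 5 members that rose at 500 nM and 0 of the 5 that fell. The motif is in 0.487% of 27305 promoters and in 0.319% of the 10029 promoters of tested genes. The unfolded protein response core was found on the opposite strand in DNAJC10 at chr2:182716132-182716139 (base -125 to -118), and it is in 0.795% of all promoters. The windows of DNAJB1 and DNAJC3 held 0 matches, which says only that these letters are not in these windows. The ERSE and ERSE-II were in 0 members, against 0.0806% and 0.0549% of all promoters. Of the main partners, the HSPA8 window held 2 heat shock elements and the HSPA5 window 1 ERSE.

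The cytosolic members that rose encode general helpers of HSP70. DNAJB1 (chr19:14514769-14560391, minus strand) encodes the canonical heat-inducible class B protein. It stood at 3033, 3053 and 2861 normalized counts with DMSO and at 3036, 3000.5 and 2932 with 0.5 nM. With 5 nM the libraries held 3337, 3302 and 3178, with 50 nM 5416, 5452 and 5192, and with 500 nM 6859, 6661 and 7196. All 5 nM libraries lay above all DMSO libraries, but the log2 fold change of 0.13 did not pass (limma, adjusted p = 0.12) unless the 6 libraries of 5 nM and DMSO were fitted alone (0.041). At 50 nM it was 0.84 (SE 0.042, adjusted p = 3.3e-10) and at 500 nM 1.21 (95% CI 1.12 to 1.30, adjusted p = 5.0e-13), a 2.31-fold rise. Both of the upper steps passed, with 0.71 from 5 to 50 nM (adjusted p = 7.8e-09) and 0.37 from 50 to 500 nM (adjusted p = 5.3e-05). Among genes that rose at 500 nM it ranked 2 by p, and DNAJA1 ranked 7.

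DNAJA1 (chr9:33025273-33039907, plus strand), a class A partner of HSP70, had 7187, 7051 and 6917 normalized counts with DMSO. The 0.5 nM libraries held 6541, 7105 and 6691 and those of 5 nM 7009, 7424 and 6922, overlapping DMSO. At 50 nM the values were 10831, 10005 and 10371 and at 500 nM 11447, 11716 and 11470.0. The log2 fold change against DMSO was 0.56 at 50 nM and 0.71 at 500 nM (SE 0.043 each, limma, adjusted p = 7.0e-08 and 1.0e-09). The step from 5 to 50 nM was 0.55 (adjusted p = 1.7e-07), and that of 0.15 from 50 to 500 nM did not pass (adjusted p = 0.087), although it did by DESeq2 (0.022) and without the second 0.5 nM library (0.020). Its 6 pseudogene rows together held at most 2.00 normalized counts in a library. Reads that fit both DNAJA1 and a pseudogene may be counted in neither, so this sum does not measure them.

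DNAJB4 (chr1:77979175-78017964, plus strand), a relative of DNAJB1, is expressed at a lower level. It had 331, 346 and 312 normalized counts with DMSO, 292, 376 and 279.5 with 0.5 nM and 285, 318 and 302 with 5 nM. With 50 nM it had 429.8, 464 and 448 and with 500 nM 428, 457 and 474, all above the DMSO libraries. The log2 fold change was 0.44 at 50 nM and 0.46 at 500 nM (SE 0.092 each, limma, adjusted p = 0.0051 and 0.0015). The difference between these doses was 0.02 (95% CI -0.17 to 0.21, adjusted p = 0.96), and 95.9% of the 500 nM value was thus present at 50 nM.

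DNAJB6 (chr7:157335381-157417439, plus strand) encodes a suppressor of protein aggregation. Its normalized counts were 3819.9, 3748 and 3736 with DMSO, 3875, 3944 and 3906 with 0.5 nM and 3832, 3917 and 3719 with 5 nM. They were 4271, 4481 and 4542 with 50 nM and 4960.3, 5127 and 4978 with 500 nM, so the 2 highest doses overlapped neither DMSO nor each other. The log2 fold change was 0.23 at 50 nM and 0.41 at 500 nM (SE 0.038 each, limma, adjusted p = 0.00043 and 2.0e-07). The step of 0.18 from 50 to 500 nM passed (adjusted p = 0.013), but not without the first 50 nM library (0.064), the second 500 nM library (0.078) or the third one (0.0515). That first 50 nM library also held the most reads on the 8 DNAJB6 pseudogene rows, 366 normalized counts or 8.58% of DNAJB6, against 2.18 to 4.66% in the other libraries, and the part of this in the result was not tested.

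DNAJB2 encodes a class B protein that hands clients to the proteasome. It had 512, 466 and 496 normalized counts with DMSO, 507, 514 and 478 with 0.5 nM, 529, 516 and 538 with 5 nM, 529, 557 and 516 with 50 nM and 526, 624 and 531 with 500 nM. All libraries of the 3 upper doses lay above DMSO, and at 500 nM 1 library was well above the other two. The slope of 0.05 log2 units per dose step passed (SE 0.014, limma, adjusted p = 0.030), whereas the change of 0.18 at 500 nM did not (adjusted p = 0.068). The slope did not pass without the second DMSO library (0.089) or the second 500 nM library (0.14), over the 12 treated libraries (0.12) or with no filter on low values (0.065), and the value at 500 nM passed without the second 0.5 nM library (0.046) or the first 500 nM library (0.049). The other 6 cytosolic members tested (DNAJA2, DNAJB5, DNAJC2, DNAJC7, DNAJC21 and DNAJC24) had log2 fold changes from -0.06 to 0.07 at 500 nM.

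**Figure D3:**
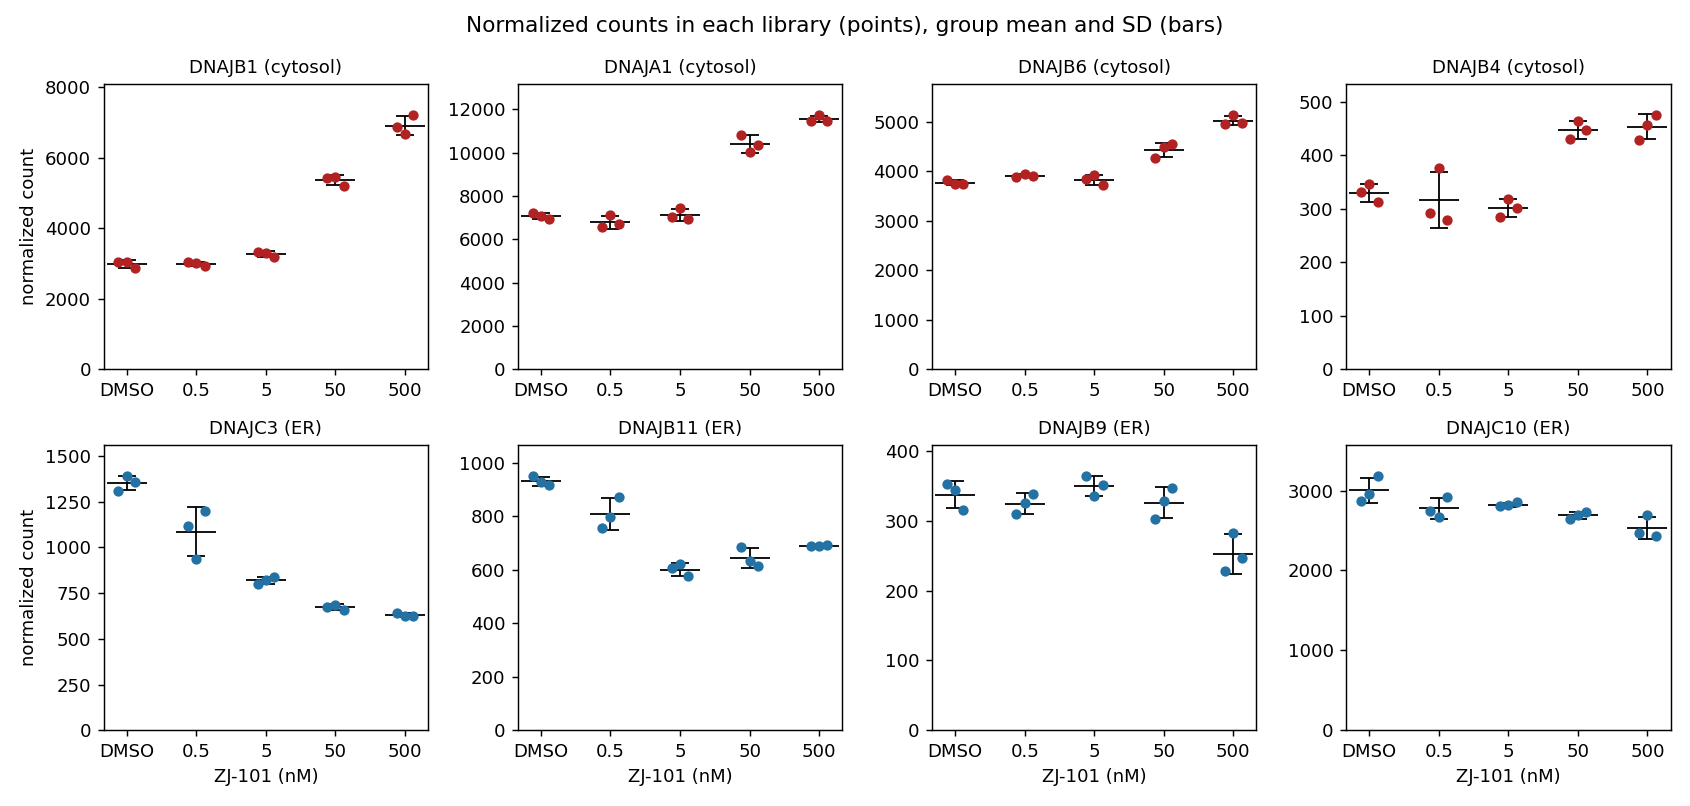
Points are the normalized counts (y axis from 0) of the 3 libraries at each dose (x axis, DMSO and nM ZJ-101), and bars give the group mean and SD, for the 4 cytosolic genes that rose (top row) and 4 of the ER genes that fell (bottom row). DNAJC3 is already lower at 5 nM (801 to 839) than with DMSO (1311 to 1388), DNAJB9 at 500 nM (228 to 283), and DNAJB1 is higher from 50 nM.

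In the ER the members that fell at 500 nM differed in the dose at which they first passed. DNAJC3 (chr13:95677139-95794988, plus strand) encodes p58IPK, a co-chaperone of BiP in the ER lumen. Its libraries held 1311, 1388 and 1356 normalized counts with DMSO, 1118, 937 and 1199 with 0.5 nM and 801, 823 and 839 with 5 nM. At 50 nM they held 675, 687 and 656 and at 500 nM 640.0, 626 and 624, so that no group overlapped another. DNAJC3 fell by 0.32 on the log2 scale at 0.5 nM (SE 0.067, limma, adjusted p = 0.023), by 0.72 at 5 nM (adjusted p = 1.1e-05), by 1.01 at 50 nM (adjusted p = 8.1e-09) and by 1.10 at 500 nM (95% CI -1.24 to -0.96, adjusted p = 9.5e-10). The 5 nM value was 65.4% of that at 500 nM, and the 50 nM value 91.4%.

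The call of DNAJC3 at 0.5 nM was the weakest of these. It did not pass without the first, the second or the third DMSO library (adjusted p = 0.081, 0.12 and 0.094) or when the 6 libraries of 0.5 nM and DMSO were fitted alone (0.24). The lowest of its 0.5 nM values came from the second library, which stands apart by transcript length, and without that library DNAJC3 still passed with a log2 fold change of -0.22 (adjusted p = 0.033). The step from 0.5 to 5 nM was -0.39 (adjusted p = 0.015) and that from 5 to 50 nM -0.29 (adjusted p = 0.015). The first of these steps did not pass without the first or the third 0.5 nM library or any one of the 5 nM libraries (adjusted p from 0.064 to 0.13). The second did not pass without the second or the third 5 nM library or the first or the third 50 nM library (0.051 to 0.071). The step from 50 to 500 nM was -0.09 (95% CI -0.23 to 0.05) and did not pass.

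DNAJB11 (chr3:186567403-186585800, plus strand), a soluble co-chaperone of BiP, followed another course. It had 948, 928 and 915 normalized counts with DMSO and 754, 797 and 872 with 0.5 nM, below DMSO in all 3 libraries, with a log2 fold change of -0.21 that did not pass (limma, adjusted p = 0.11). It then had 606, 620.4 and 575 with 5 nM, 686, 632 and 613 with 50 nM and 689, 689 and 692 with 500 nM. The 5 nM libraries overlapped those of 50 nM and lay below all 3 of 500 nM. DNAJB11 fell by 0.63 on the log2 scale at 5 nM (adjusted p = 1.1e-05), by 0.53 at 50 nM (adjusted p = 5.6e-06) and by 0.43 at 500 nM (adjusted p = 3.0e-05), with an SE of 0.059 each. The step from 0.5 to 5 nM was -0.42 (adjusted p = 0.0024). The difference from 5 to 500 nM, a test added after the values had been seen, was 0.20 upward (95% CI 0.08 to 0.32, adjusted p = 0.032). This last difference did not pass without the first or the third 5 nM library or any one of the 500 nM libraries (0.067 to 0.14), nor with no filter on low values (0.066). In that comparison 5 members rose and 3 fell, against 11.7% of all genes past the threshold (5.49% up and 6.22% down). Over the 12 treated libraries the slope of DNAJB11 did not pass (adjusted p = 0.31). The annotation places 14.2% of its exon bases inside other genes, mainly HRG-AS1, and whether counting used the strand is not given in the sources used here.

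DNAJB9 (chr7:108569867-108574850, plus strand) encodes an ER protein that acts on BiP and on the sensor IRE1. The DMSO libraries held 354, 344 and 316 normalized counts, those of 0.5 nM 310.1, 325 and 339, those of 5 nM 364, 335 and 351 and those of 50 nM 303, 329 and 347, all overlapping. With 500 nM it had 228, 283 and 246, below every other library. DNAJB9 fell by 0.42 on the log2 scale at 500 nM (SE 0.083, limma, adjusted p = 0.0013), while the values at the lower doses were -0.06, 0.05 and -0.05 and did not pass. The step from 50 to 500 nM was -0.37 (adjusted p = 0.021). It did not pass without the second or the third 50 nM library or the first or the third 500 nM library (0.090 to 0.12), and the slope of -0.08 (adjusted p = 0.028) did not pass without the first DMSO library or any one of the 500 nM libraries (0.0505 to 0.124).

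DNAJC10 (chr2:182716255-182794464, plus strand), a disulfide reductase of the ER lumen, had 2868, 2961 and 3178 normalized counts with DMSO and 2749, 2665 and 2922 with 0.5 nM. It had 2806, 2815 and 2852 with 5 nM, 2646, 2694 and 2734 with 50 nM and 2467, 2688 and 2435 with 500 nM. Each library from 5 nM upward was lower than each DMSO library, and the log2 fold change of -0.25 passed at 500 nM (SE 0.049, limma, adjusted p = 0.0014) but that of -0.16 at 50 nM did not (adjusted p = 0.069). The 50 nM value passed without the second 0.5 nM library (0.028) or the third one (0.049), and with the 6 libraries of 50 nM and DMSO alone (0.036). From 5 to 500 nM the difference was -0.16 (adjusted p = 0.040). It did not pass without the second DMSO library, any one of the 5 nM libraries, the third 50 nM library or the first or the third 500 nM library (0.0502 to 0.169), nor with no filter (0.095). The slope of -0.05 (adjusted p = 0.0023) did not pass over the 12 treated libraries (0.0506).

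DNAJB14 and DNAJC16 were the ER members closest to the threshold. DNAJB14, a membrane protein whose J domain faces the cytosol, had 856, 847 and 959.8 normalized counts with DMSO, 861, 797 and 851 with 0.5 nM, 789.8, 813 and 790.1 with 5 nM, 863, 846 and 840.3 with 50 nM and 729, 840.5 and 763 with 500 nM, where all 3 libraries lay below DMSO. Its log2 fold change at 500 nM was -0.19 (SE 0.060, limma, adjusted p = 0.033) and did not pass without the third DMSO library (0.18), the first 500 nM library (0.16) or the third (0.10), or with no filter (0.068). DNAJC16, an ER membrane member and the one ER gene that rose, had 434, 411 and 363 with DMSO, 392, 325 and 375 with 0.5 nM, 409, 427 and 403 with 5 nM, 463, 445 and 479 with 50 nM and 509.6, 480.4 and 463 with 500 nM. The second 0.5 nM library was its lowest, and all 50 and 500 nM libraries lay above DMSO. The change of 0.27 at 500 nM (SE 0.078, adjusted p = 0.021) did not pass without the third DMSO library (0.13), the first 500 nM library (0.097) or the second (0.053).

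The other 5 ER members (DNAJB12, DNAJC1, DNAJC14, DNAJC18 and DNAJC25) had log2 fold changes from -0.08 to 0.17 at 500 nM. DNAJB12, the close relative of DNAJB14, was at 0.0002 (95% CI -0.10 to 0.11). DNAJC14 shares 58.1% of its exon bases with other genes, so its reads are uncertain. At 0.5 nM the log2 fold change was below 0 in all 11 ER members, with a median of -0.11. It was below 0 in 25 of all 36 tested members and in 7108 of all 13561 tested genes, whose median was -0.01. Among the ER members it was below 0 in 10 of 11 by edgeR. It was below 0 in 10 of 11 without the second 0.5 nM library (median -0.08) and in 9 of 11 without the third one (median -0.13). These values share the DMSO libraries, and of the ER members only DNAJC3 passed the threshold at 0.5 nM.

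The summed level of each compartment showed the weight of the abundant genes. All 15 cytosolic members together held 19579 to 20008 normalized counts with DMSO, 19799 to 20821 with 5 nM, 26196 to 26935 with 50 nM and 29514 to 30063 with 500 nM. DNAJB1 supplied 14.6 to 15.4% of that sum with DMSO and 22.2 to 23.9% with 500 nM, and DNAJA1 35.3 to 35.9% and 38.2 to 39.1%. The 11 ER members held 9427 to 9686 with DMSO, 8404 to 9020.3 with 0.5 nM, 8281 to 8403 with 5 nM, 8344 to 8475 with 50 nM and 7925 to 8310 with 500 nM. Every treated sum of the ER lay below every DMSO sum, and the share of DNAJC3 in it went from 13.9 to 14.6% with DMSO to 7.53 to 7.99% with 500 nM. Mitochondrial sums lay between 1749 and 2249 in all libraries, and those of other places between 8377 and 9152.

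Normalized counts were also divided by the kilobases of exon of each gene, merged over all its annotated transcripts. This length can far exceed that of a single transcript, and ranks between genes depend on it. For DNAJB6 it was 14981 bases, against 2489 in its longest coding transcript. On this scale DNAJA1 was the highest member with DMSO, at 2643 ± 50.6 normalized counts per kilobase (SD, n = 3). DNAJC8, a nuclear protein associated with the spliceosome, followed at 654 ± 27.3 (SD, n = 3), and DNAJC5, the cysteine string protein of secretory vesicles, at 599.97 ± 24.2 (SD, n = 3). DNAJB1 was at 364 ± 12.9 (SD, n = 3), rank 6 of the members, and at 843 ± 33.1 (SD, n = 3), rank 2, with 500 nM. DNAJC3 went from 242 ± 6.95 (SD, n = 3), rank 8, to 113 ± 1.59 (SD, n = 3), rank 12.

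Mitochondrial members gave 0 calls of 5 at every dose and in every step by edgeR, DESeq2 and limma over all 15 libraries. The exception is the step from 50 to 500 nM, where DESeq2 gave an adjusted p for only 4, with 0 calls. In limma fits on fewer libraries DNAJA3 passed at 5 nM (6 libraries, adjusted p = 0.018) and DNAJC11 by the slope (12 treated libraries, adjusted p = 0.045). At an unadjusted p under 0.05, limma gave 1 at 5 nM (DNAJA3, down), 1 from 5 to 50 nM (DNAJC30, up) and 1 by the slope (DNAJC11, up). The share of all tested genes at that unadjusted p is not given here. At 500 nM the log2 fold change was 0.10 for DNAJC11, a membrane protein near the complex that shapes the cristae, 0.06 for DNAJC19 of the protein import motor, 0.05 for DNAJC30 of the inner membrane and -0.07 for DNAJC15, a relative of DNAJC19. DNAJA3, the class A protein of the matrix, varied widely between libraries of the same group. It had 501, 318 and 258 normalized counts with DMSO, 211, 199 and 249 with 0.5 nM, 80.3, 276 and 40.2 with 5 nM, 47.3, 136 and 346 with 50 nM and 52.0, 211 and 284 with 500 nM. The estimate at 500 nM was -1.23 on the log2 scale, with a 95% CI from -2.63 to 0.17 (limma, adjusted p = 0.24). The pooled SD within groups was 1.09 log2 units, against a median of 0.117 for 3347 genes with a level within 2-fold of its own, and 9 of those had a larger one.

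Members of other places also gave 0 calls of 9 at every dose by edgeR, DESeq2 and limma over all 15 libraries, except that DESeq2 gave an adjusted p for only 8 at 0.5 nM. At an unadjusted p under 0.05 limma gave 2 at 500 nM (DNAJC5 and DNAJC22, both down) and 0 at the other doses. These counts too have no share of all tested genes beside them. DNAJC22, a membrane protein of poorly known role, had 294 ± 14.8 normalized counts with DMSO and 255 ± 2.69 with 500 nM (SD, n = 3 each), which differ by -0.21 on the log2 scale (limma, adjusted p = 0.099). The rest ranged from -0.13 to 0.14 at 500 nM. DNAJC5, at -0.10, passed when the 6 libraries of 500 nM and DMSO were fitted alone (limma, adjusted p = 0.049). Its difference from 5 to 500 nM of -0.13 passed without the second 0.5 nM library (0.042) or the third one (0.039). The endosomal DNAJC13 was low in the second 0.5 nM library, at 1055 normalized counts against 1499.9 and 1534 in the other two. DNAJC9, a histone co-chaperone, shares 56.5% of its exon bases with other genes, mainly FAM149B1.

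The 8 members below the filter were near 0 in this line. DNAJB3 and DNAJB8 had 0 reads in all 15 libraries, where a count of 0 allows up to 3 reads, or 2.65 to 3.27 normalized counts, in a library (counting error only). DNAJA4, a heat-inducible class A member like DNAJA1, averaged 2.45 normalized counts with a range of 1.02 to 4.25. DNAJC28, DNAJC12, DNAJB13, DNAJB7 and DNAJC5B averaged between 0.059 and 0.853. Changes of these genes were not detectable at this depth.

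The HSP70 partners and exchange factors of each compartment were set beside the members. Over all tested genes 7.69% rose and 10.1% fell at 500 nM. In the cytosol 7 of 12 tested partners rose at this dose and 0 fell. The largest log2 fold changes were those of HSPA6 (2.83), the exchange factor HSPH1 (1.45) and HSPA8 (1.24). HSPA8, the constitutive HSP70, went from 30834 ± 1800 normalized counts with DMSO to 36522 ± 2206 at 5 nM, 60390 ± 3130 at 50 nM and 72683 ± 839 at 500 nM (SD, n = 3 each), and it passed already at 5 nM (limma, log2 fold change 0.24, adjusted p = 0.024). HSPA6 rests on few reads, with 2.0 to 6.7 normalized counts with DMSO and 34.7 to 37.1 with 500 nM, and its reads are hard to tell from those of its close copy HSPA7. In the ER 3 of 4 partners fell at 500 nM (HSPA5, HSPA13 and HYOU1, by 1.38, 0.60 and 0.41 on the log2 scale) and SIL1 had -0.20 (adjusted p = 0.074). HSPA5 had 14143 ± 313 with DMSO, 14159 ± 306 with 0.5 nM, 12408 ± 139 with 5 nM, 10190 ± 495 with 50 nM and 5439 ± 190 with 500 nM (SD, n = 3 each). Its log2 fold changes were 0.00, -0.19, -0.47 and -1.38, and those of DNAJC3 at the same doses -0.32, -0.72, -1.01 and -1.10. The step from 50 to 500 nM was -0.91 for HSPA5 (limma, adjusted p = 4.8e-10) and did not pass for DNAJC3. In mitochondria HSPA9 had 6266, 6225 and 6424 normalized counts with DMSO and 7638, 7617 and 7413 with 500 nM. It rose by 0.26 (SE 0.041, adjusted p = 0.00017) and its exchange factor GRPEL1 by 0.17 (adjusted p = 0.036), while GRPEL2 was at 0.002. The calls of HSPA8 and HSPA5 at 5 nM depended on the libraries: leaving out 1 library gave between 0 and 3 calls among the partners at that dose. HSPA1A, HSPA1B and HSPA1L were below the filter, so a response of these genes was not tested. Whether their counts leave out reads that fit close copies was not examined, so low values here need not mean low expression.

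**Figure D4:**
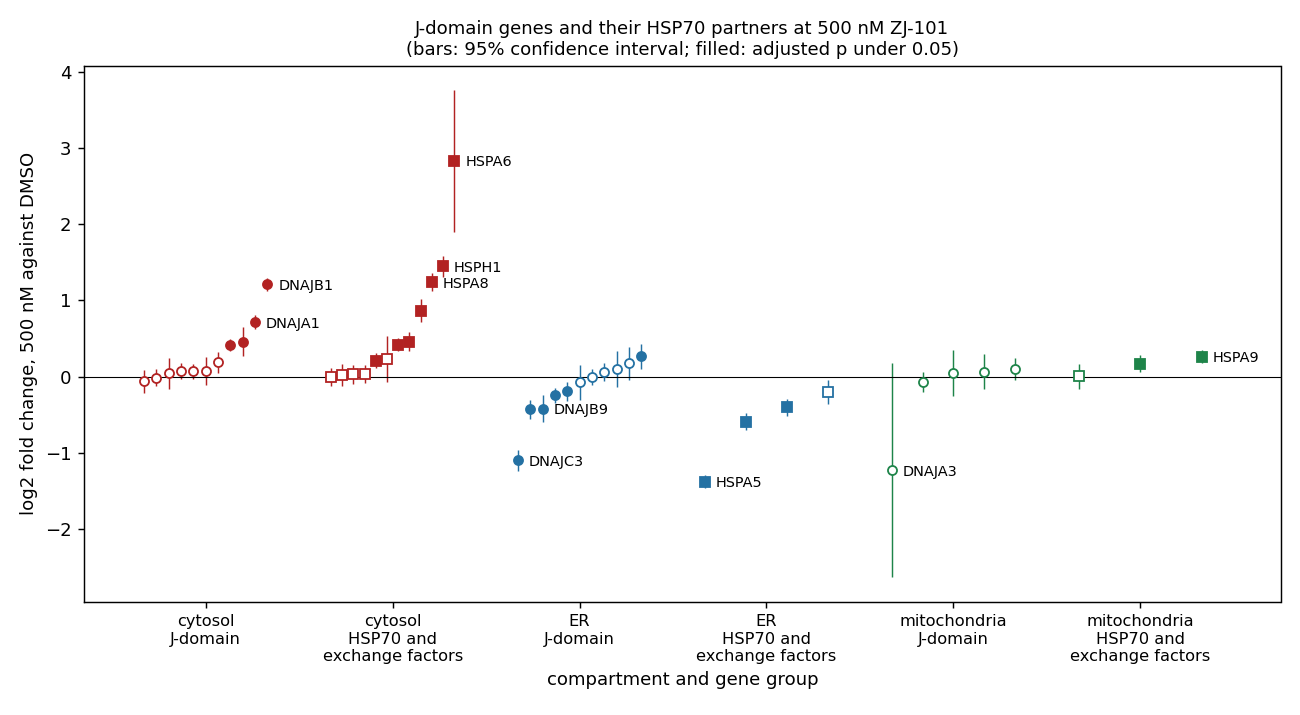
The log2 fold change at 500 nM against DMSO (y axis) is plotted for J-domain members (circles) and for HSP70 proteins and exchange factors (squares) of 3 compartments (x axis), with bars for the 95% confidence interval and filled symbols for an adjusted p under 0.05. Filled cytosolic symbols all lie above 0, filled ER symbols lie below 0 except DNAJC16, and DNAJA3 has the widest interval.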

How the data were processed

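Poly-A RNA of 15 libraries was sequenced as paired reads. The authors aligned these to hg38 (HISAT2), took gene counts from htseq-count and scaled them by DESeq2 size factors, so the deposited values are a signal in normalized counts. Tool versions, the gene annotation release and strandedness are not given in the sources used here. Whole reads were recovered for 100% of values (tolerance 0.001), and 1 line without a gene was left out.

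Here log2(normalized count + 1) was fitted with limma 3.58.1 (trend) in R 4.3.3, after dropping genes that averaged under 10. A single fit held all 5 groups (10 residual degrees of freedom), and a separate fit took the slope on the dose rank. P-values were adjusted over all 13561 genes (Benjamini-Hochberg), with a threshold of 0.05. Fold changes are on the log2(value + 1) scale and understate those of low genes. On the recovered reads edgeR 4.0.16 and DESeq2 1.42.0 called 2432 and 2203 genes at 500 nM, against 2409 by limma. The code was tested on simulated data. The members and lists were chosen with earlier results of these data known, and the comparison of 5 with 500 nM was added after seeing the data. Values in every library are given for members past the threshold in any comparison. Others were named by fixed rules, with summary values. These were up to 3 of the largest non-passing changes at 500 nM and the 3 highest members per kilobase with DMSO. Among partners they were HSPA8, HSPA5, HSPA9 and up to 3 risers and 3 fallers. Other genes named beside a count were chosen after their values were seen. Coordinates come from GENCODE release 44 (GRCh38) and promoters from RefSeq. Alternatives were other pseudocounts, filters, scalings and tools, a replicate block, and leaving out each library. Protein sequences were not analysed here.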

Additional observations from a re-analysis of the deposited data

How the results depend on the processing

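The alternatives gave 1182 values for comparisons past the threshold, and for DNAJB2 at 500 nM. Of these 1128 kept their direction and side of the threshold, 51 no longer passed, 3 newly passed (all DNAJB2 at 500 nM) and 0 reversed. Only DNAJB2 could newly pass in this set. Outside it other members passed under some alternatives, such as DNAJC10 at 50 nM and DNAJA1 from 50 to 500 nM. Leaving out a library of neither compared group keeps the limma fold change between 2 groups by construction. Leaving out 1 library gave between 0 and 2 members at 0.5 nM, 1 and 2 from 0.5 to 5 nM, 1 and 4 from 50 to 500 nM, 6 and 7 at 50 nM, 8 and 11 at 500 nM, 8 and 11 by the slope and 6 and 10 from 5 to 500 nM. Among the partner genes at 5 nM it gave between 0 and 3, and with no filter on low values 0, against 2. At 500 nM the ER fallers were 4 without the third DMSO, the first 500 nM or the third 500 nM library. With only the 6 libraries of a dose and DMSO, 0 members passed at 0.5 nM and 4 at 5 nM (DNAJB1 up, and DNAJC3, DNAJB11 and DNAJA3 down), a fit with fewer samples. Among libraries that share a replicate number, 0 of 30 correlations of their deviations over all tested genes exceeded 0.1 (-0.0855 to 0.0961). These correlations do not exclude a weaker shared pattern. For exon length, rho lay between 0.0465 and 0.155 in the third replicates and between -0.0287 and 0.166 in the first. The libraries at -0.423 and -0.219 were both second replicates, and the other second replicates lay between -0.0254 and 0.0957. With the replicate number as a block, 1, 2, 6 and 10 members passed at the 4 doses and 10 by the slope, as without it. Low members (under the filter of 10 normalized counts) are limited by depth.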
